A study of Rattus norvegicus with 8 samples.

Results

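The 9 hypothalamic neuropeptide genes *Hcrt*, *Pmch*, *Agrp*, *Pomc*, *Avp*, *Oxt*, *Trh*, *Cartpt* and *Ghrh* were followed in RNA of the rat *substantia nigra* (SN), a midbrain nucleus that lies close behind the hypothalamus. They were chosen by name, and every probe whose RefSeq accession belongs to one of them was taken, which gave 11 of the 45598 probes on the array. *Ghrh* had 3 probes and each other gene had 1. The tissue came from adult female Sprague Dawley rats that were 3 months old at surgery and were killed 20 weeks later. A viral vector had been injected into the SN on 1 side of the brain, and the SN of that side was dissected. The AAV-αSyn group (4 rats) received AAV6 carrying wild-type human α-synuclein at 5.2e10 vg/µL, and the AAV-Null group (4 rats) received the control vector AAV6-Null at 5.3e9 vg/µL, so that the control rats had surgery and a virus too. The promoter that drives the transgene is not given in the sources used here. The titre therefore differed between the groups and cannot be told apart from the transgene. One Agilent array was run for each rat, with Cy3 as the only dye. The methods describe fewer arrays in a group than were deposited and do not name them, so all 8 were used.

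Hypothalamic neuropeptides are made as large precursors, cut by prohormone convertases inside dense-core granules and released from axons or into the blood. They govern feeding, arousal, water balance, birth and lactation, growth and the thyroid and stress axes. Their cell bodies lie mainly in the lateral hypothalamus, the arcuate nucleus and the paraventricular and supraoptic nuclei, and orexin and melanin-concentrating hormone axons reach the dopaminergic midbrain. The question put to the arrays was whether the AAV-αSyn and AAV-Null samples differed in them.

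All values are log2 intensities after quantile normalization of the background-corrected signal, and a difference is AAV-αSyn minus AAV-Null. The share of spots well above background was 74.8% to 77.5% by array, and 0 spots were saturated. The tissue carried the defining markers of the dopaminergic SN on every array. *Th*, which encodes tyrosine hydroxylase, was 16.30 to 16.70 in AAV-Null and 15.88 to 16.01 in AAV-αSyn. All 7 of the midbrain dopaminergic genes with a named probe were above background on all 8 arrays, and all 7 had a lower mean in AAV-αSyn, 3 of them at an unadjusted p under 0.05 and 0 past the adjustment. *Th* differed by −0.52 (unadjusted p = 0.000604 and adjusted p = 0.484 in limma), with groups that did not overlap. *Slc6a3*, the dopamine transporter, differed by −0.79 and *Pitx3*, a transcription factor of these neurons, by −0.78 (adjusted p = 0.747 for each in limma). Markers of tissue around the SN were counted at an unadjusted p under 0.05, which 5.64% of all probes tested had. The choroid plexus and ependymal list and the pituitary list each gave 0 of 5. A single array still stood out in the first of these lists. *Ttr* was 12.33 on AAV-αSyn replicate 2 and 6.64 to 8.91 on the other arrays. The summed level of that list was 12.52 on AAV-αSyn replicate 2 and at most 10.22 elsewhere. Of the 5 raphe and hindbrain genes tested, *Tph2*, *Slc6a4* and *Slc6a5* were higher in the AAV-αSyn group at an unadjusted p under 0.05. *Slc6a5* was past the adjustment (adjusted p = 0.0424 in limma). That call was lost when any array other than AAV-αSyn replicate 2 was left out, with adjusted p up to 0.198. It was also lost with cyclic loess, with no filter on dim probes, with the deposited matrix, and with the replicate number or the slide side as a block. *Dbh* also had an unadjusted p under 0.05 in limma, but was above background on 3 AAV-αSyn arrays and 0 of AAV-Null. That p rests on AAV-Null values that were not measured, and the exact permutation test gave p = 0.143. Its mean was at least 5.42-fold higher in AAV-αSyn by the lowest signal that counts as measured. Its log2 difference of 3.74 ran from 1.14 to 4.72 over the processing alternatives and from 3.14 to 5.17 with 1 array left out. On AAV-αSyn replicate 1 *Dbh* was 1.31, below every AAV-Null array. The log2 of the summed intensity of the 5 raphe and hindbrain genes ran from 9.14 to 11.19 in AAV-Null and from 11.28 to 12.60 in AAV-αSyn. Of the 5 thalamic genes tested, *Prkcd*, *Gbx2*, *Rgs16* and *Plekhg1* had lower means in AAV-αSyn at an unadjusted p under 0.05, with 0 past the adjustment. Their summed levels overlapped, at 11.71 to 13.97 in AAV-Null and 10.73 to 12.18 in AAV-αSyn. With 1 array left out, *Prkcd* kept an unadjusted p under 0.05 in 5 of 8 comparisons, *Rgs16* and *Plekhg1* in 4 and *Gbx2* in 3, and *Gbx2* went from −2.00 to −1.09 without AAV-αSyn replicate 4. The part of these tissues in the peptide values was not tested.

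No difference between the groups was detected for any of the 9 peptide genes. All 11 probes were above background on 8 of 8 arrays, so every member was tested. In limma, 0 of the 9 had an adjusted p under 0.05, where 0.0148% of the 33853 probes tested did. At an unadjusted p under 0.05 the count was also 0, where the background was 5.64%. The groups of arrays overlapped for all 9, while 3.83% of probes had groups that did not overlap. The unadjusted p ran from 0.185 for *Trh* to 0.943 for *Ghrh*, and the adjusted p from 0.965 to 0.998. Exact permutation tests over all 70 splits of the 8 arrays, two-sided, gave p from 0.2 to 0.943, and the smallest p that 4 arrays against 4 allow is 0.0286. Of the 9 genes, 4 had a higher mean in AAV-αSyn and 5 a lower one, with a median difference of −0.01 beside 0.01 over all probes. In bulk tissue, fewer cells of a type and less RNA in each cell cannot be told apart.

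**Figure D1:**
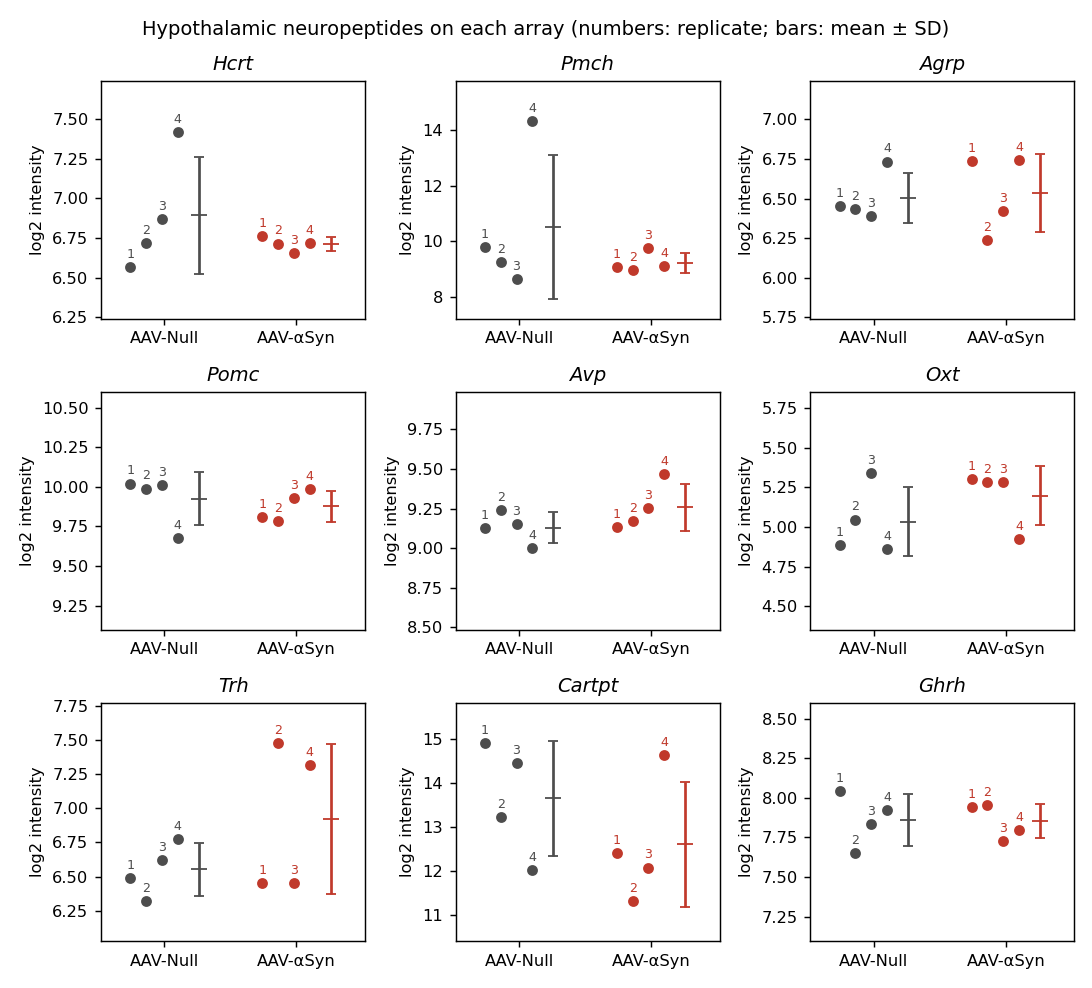
Each panel shows 1 peptide gene, with the log2 intensity on the vertical axis and the 4 arrays of each group as numbered points, beside the group mean and its SD. *Pmch* reached 14.32 on AAV-Null replicate 4 and stayed at or below 9.81 on the other 7 arrays, *Cartpt* spread over 3.60 log2 units, and *Agrp*, *Pomc*, *Avp*, *Oxt* and *Ghrh* varied by at most 0.50.

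*Pmch* (A_42_P527961) encodes the precursor of melanin-concentrating hormone, an orexigenic and sleep-promoting peptide of the lateral hypothalamus and zona incerta. Its log2 intensity was 9.81, 9.26, 8.66 and 14.32 on AAV-Null replicates 1 to 4. It was 9.07, 8.99, 9.78 and 9.12 in AAV-αSyn replicates 1 to 4. AAV-Null replicate 4 stood far above all the others, and the other 3 AAV-Null arrays lay in the range of the AAV-αSyn arrays or just outside it. The probe has 2 spots on each array, and the high value was present in both. Their processed intensities were 22214 and 21893 on AAV-Null replicate 4 and between 363 and 909 elsewhere, and no spot was marked as an outlier. The excess over the next array was 4.51 on the log2 scale, or 22.7-fold. It ranked 3 among 33836 probes with a value on every array. AAV-Null replicate 4 exceeded every other array by at least 4-fold at 14 probes, 0.0414% of these, and the same count for the other arrays ran from 2 to 68.

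The group means of *Pmch* were 10.51 ± 2.58 (SD, n = 4) in AAV-Null and 9.24 ± 0.36 (SD, n = 4) in AAV-αSyn. The difference of −1.27 (SE 1.12, 95% interval −3.85 to 1.31) had an unadjusted p of 0.290 in limma (adjusted p = 0.972) and a p of 0.514 in the exact permutation test. Without AAV-Null replicate 4 the difference was −0.0016 (95% interval −0.72 to 0.72), with means of 9.24 and 9.24. The spread within the groups exceeded that of 99.6% of the probes tested. By the position of the arrays on the slide, the difference was −2.36 on the side that holds AAV-Null replicate 4 and −0.18 on the other.

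*Hcrt* (A_42_P500675) encodes the precursor of the orexins, wake-promoting peptides made by neurons that are intermingled with those of *Pmch*. It was 6.57, 6.72, 6.87 and 7.42 in AAV-Null replicates 1 to 4 and 6.76, 6.72, 6.66 and 6.72 in AAV-αSyn replicates 1 to 4. The highest value again fell on AAV-Null replicate 4, by 0.55 over the next array, and the AAV-αSyn arrays lay close together within the AAV-Null range. The difference was −0.18 (SE 0.17, unadjusted p = 0.326 and adjusted p = 0.972 in limma) and became −0.00 without AAV-Null replicate 4. Over the 8 arrays *Hcrt* and *Pmch* had a Pearson r of 0.86 but a Spearman rho of −0.19. Without AAV-Null replicate 4 their r was −0.92, so the positive value rested on that array. These coefficients describe 8 arrays that share 1 slide and 1 normalization, and carry no p.

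The other hypothalamic genes on AAV-Null replicate 4 were read from lists. This array was the highest of the 8 at 18.6% of all probes, and at 2 of the 9 peptides, *Hcrt* and *Pmch*. Of the 6 markers of the mammillary, tuberomammillary and subthalamic region, 5 were highest on it. Of 10 hypothalamic transcription factors tested, 5 were highest on it, with *Nkx2-1* counted in both lists. The count was 2 of 8 for the other hypothalamic peptides, of which *Npvf* was above background on this array alone. Among the lists not chosen as hypothalamic, the count was 8 of 15 for the processing and granule genes and 6 of 10 for the receptors of the peptides. It was 1 of 7 for the dopaminergic genes and 0 for the thalamic, pituitary, Edinger-Westphal, raphe and hindbrain, and choroid plexus and ependymal lists. No test compared these counts. The genes named next were picked after their values were seen. *Hdc*, which encodes histidine decarboxylase of the histaminergic tuberomammillary neurons, was 9.63 on AAV-Null replicate 4 and 4.14 to 7.18 elsewhere. *Nkx2-1*, a transcription factor of the ventral hypothalamus, was 8.54 there and 3.62 to 5.10 elsewhere. *Npvf*, which encodes the RFamide peptides of the dorsomedial hypothalamus, was 7.38 there and not well above background on the other 7 arrays. *Tac3*, the neurokinin B precursor, was 10.07 there and 6.71 to 8.20 elsewhere. These genes were named because they were high on this array, and *Npvf* was tested only through its value there. *Dapl1*, *Atf7ip2* and *Ces1d*, which are on none of the lists, also exceeded every other array by at least 4-fold there (30.8-fold, 10.2-fold and 4.28-fold). An excess on a single array also occurred in the other group, where *Six6*, a transcription factor of the hypothalamus and eye, was 6.26 on AAV-αSyn replicate 4 and not well above background on the other 7 arrays.

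The other 7 peptides, *Agrp*, *Pomc*, *Avp*, *Oxt*, *Trh*, *Cartpt* and *Ghrh*, were not highest of all arrays on AAV-Null replicate 4, although *Agrp* and *Trh* were highest of the AAV-Null group there. *Otp*, *Rax*, *Nr5a1*, *Fezf1*, *Hmx3* and *Dlx2*, transcription factors of hypothalamic nuclei, were above background on no array and give no value to compare. The summed level of the mammillary and tuberomammillary markers was 11.27 on AAV-Null replicate 4, at most 9.83 in the rest of that group and 9.11 to 9.75 in AAV-αSyn. Of these 6 markers, *Lhx5*, not highest on AAV-Null replicate 4, differed between the groups at an unadjusted p under 0.05 (0.33 higher in AAV-αSyn, with an unadjusted p of 0.0259 in limma and 0 markers past the adjustment). It was 0.13 with array weights and kept an unadjusted p under 0.05 in 4 of 8 comparisons with 1 array left out. *Foxb1*, of the mammillary bodies, differed by −0.58 (unadjusted p = 0.239 and adjusted p = 0.972 in limma). The part of tissue in front of the SN in the *Pmch* value was not tested.

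**Figure D2:**
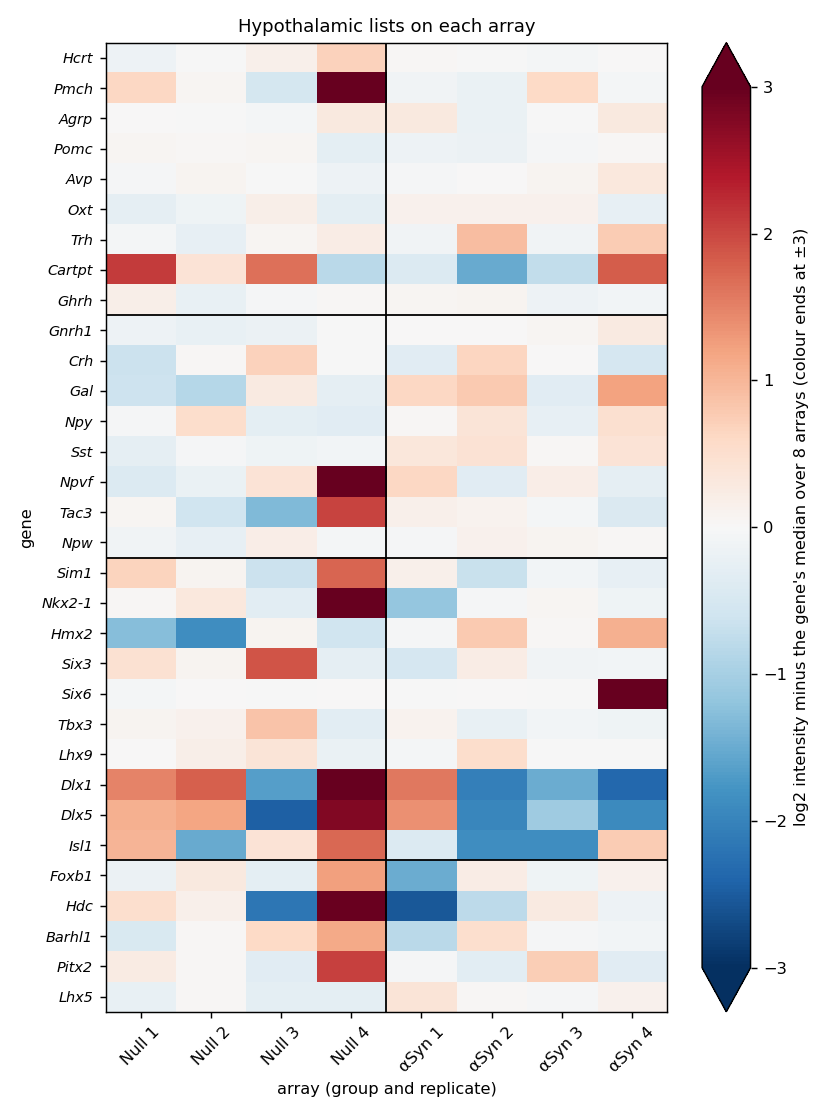
Rows are the tested genes of 4 lists, set apart by lines (the 9 peptides, other hypothalamic peptides, hypothalamic transcription factors, and mammillary, tuberomammillary and subthalamic markers), and columns are the 8 arrays. Colour gives the log2 intensity minus the gene's median over the arrays and saturates at 3, and the column of AAV-Null replicate 4 is the darkest red at *Pmch*, *Npvf*, *Nkx2-1*, *Dlx1*, *Hdc* and *Dlx5*.

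The hypothalamic markers differed in how far they followed *Pmch* on the remaining arrays. Over the 8 arrays *Hdc* and *Pmch* had a Pearson r of 0.84 and a Spearman rho of 0.93. Without AAV-Null replicate 4 the r was 0.76, and without AAV-Null replicate 4 and AAV-αSyn replicate 1, the arrays farthest from the median of *Hdc*, it was 0.88. With each group centred on its own mean the r was 0.81. For *Nkx2-1* with *Pmch* the r was 0.96 over all arrays and 0.37 without AAV-Null replicate 4. For *Foxb1* with *Pmch* it was 0.67 and 0.12. *Hdc* and *Hcrt* had an r of 0.53 over all arrays and of −0.80 without AAV-Null replicate 4. The pairs were chosen after their values were seen, so the coefficients describe these arrays and were not tested.

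*Cartpt* (A_42_P636627) encodes the precursor of CART, a peptide of arcuate and lateral hypothalamic neurons that is also made outside the hypothalamus. It was 14.91, 13.23, 14.46 and 12.02 in AAV-Null replicates 1 to 4 and 12.41, 11.31, 12.08 and 14.63 in AAV-αSyn replicates 1 to 4. High values occurred in both groups, on AAV-Null replicates 1 and 3 and on AAV-αSyn replicate 4, and the groups overlapped widely. The means were 13.66 ± 1.30 (SD, n = 4) and 12.61 ± 1.42 (SD, n = 4). The difference was −1.05 (SE 0.83, 95% interval −2.96 to 0.87), with an unadjusted p of 0.243 and an adjusted p of 0.972 in limma and a p of 0.343 in the exact permutation test. Its unadjusted p depended on 1 array. Without AAV-αSyn replicate 4 the difference was −1.73 and the unadjusted p was 0.0393 in limma, the lowest of any member in any alternative, while no adjusted p of *Cartpt* fell below 0.598. Without AAV-Null replicate 4, *Cartpt* differed by −1.59 (unadjusted p = 0.0865 and adjusted p = 0.639 in limma). It came to −0.63 without AAV-Null replicate 1 and to −0.62 without AAV-αSyn replicate 2. The difference was −0.38 and −1.72 on the 2 sides of the slide. The within-group spread exceeded that of 99.3% of the probes tested.

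*Ucn*, which encodes urocortin, was the gene whose pattern was most like that of *Cartpt* among 12587 named genes that were above background on all 8 arrays. Urocortin is known in the midbrain from the centrally projecting Edinger-Westphal nucleus, whose neurons also make CART. *Ucn* was 13.06, 11.22, 13.36 and 9.45 in AAV-Null replicates 1 to 4 and 10.54, 9.23, 10.20 and 12.93 in AAV-αSyn replicates 1 to 4. The 3 arrays that were high for *Cartpt* were also high for *Ucn*, and the 2 genes were lowest on AAV-αSyn replicate 2. Their Pearson r was 0.98 and their Spearman rho 0.93. The r was 0.98 with the groups centred, 0.98 without AAV-Null replicates 1 and 3, and 0.99 without AAV-Null replicate 4. *Ucn* differed between the groups by −1.05 (unadjusted p = 0.340 and adjusted p = 0.973 in limma). *Cck*, the other gene of the Edinger-Westphal list, encodes cholecystokinin and did not follow *Cartpt* (r = 0.31, and −0.36 with the groups centred). *Cck* differed by −0.78 (unadjusted p = 2.44e-05 and adjusted p = 0.0919 in limma), with every AAV-αSyn array below every AAV-Null array. The part of the Edinger-Westphal nucleus in the *Cartpt* values was not tested.

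**Figure D3:**
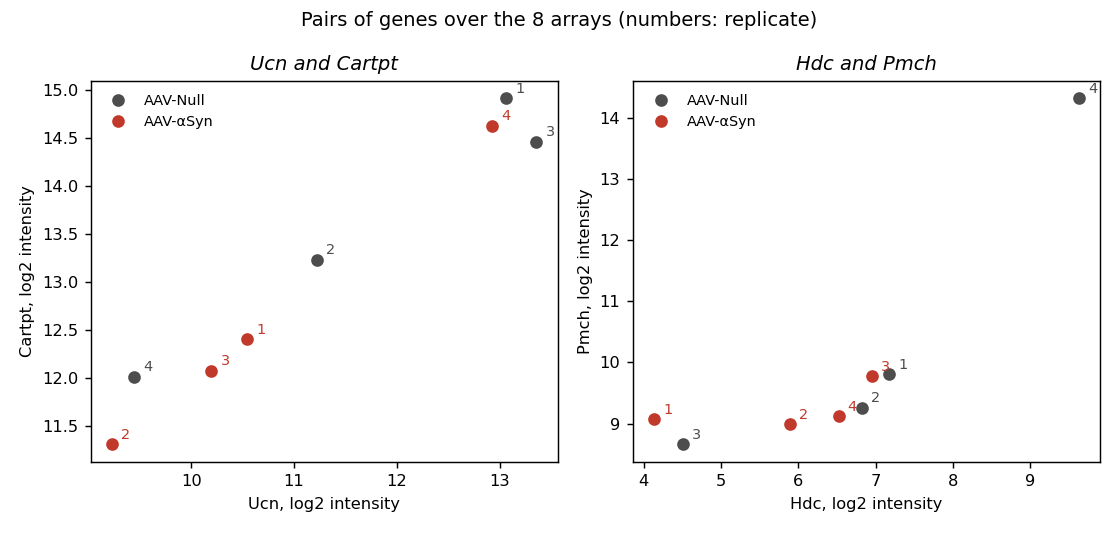
Log2 intensity of *Cartpt* against *Ucn* (left) and of *Pmch* against *Hdc* (right), 1 point for each array, numbered by replicate and coloured by group. *Cartpt* and *Ucn* rise together over arrays of both groups (r = 0.98), and AAV-Null replicate 4 stands alone at the upper right for *Pmch* and *Hdc*.

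The sequences just before the start of *Cartpt* and *Ucn* are shown because these genes varied together. They come from RefSeq on the GRCr8 assembly, are written 5′ to 3′ on the gene's strand and end at the base before the start. Capitals mark TGACGTCA, the palindromic cAMP response element. *Cartpt* lies on the minus strand (chr2:32991236-32991385) and *Ucn* on the plus strand (chr6:30957936-30958085).
Cartpt: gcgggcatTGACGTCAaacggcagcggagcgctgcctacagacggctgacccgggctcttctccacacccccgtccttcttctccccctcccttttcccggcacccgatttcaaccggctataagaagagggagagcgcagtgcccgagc
Ucn: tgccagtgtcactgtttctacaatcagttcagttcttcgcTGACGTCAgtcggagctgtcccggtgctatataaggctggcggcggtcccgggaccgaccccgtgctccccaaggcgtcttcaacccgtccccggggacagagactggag
The element began 142 bases before the start of *Cartpt* and 110 before that of *Ucn*. Searched on both strands in the 250 bases upstream, it was present in 1.59% of 33469 RefSeq promoters and in 1 of the 8 members that the table holds, *Cartpt*. The table has no entry for *Pmch*. TATAAA, searched in the same way, was present in *Hcrt* and *Pomc*, 2 of the 8, and in 12.9% of all promoters. These matches describe letters in a window and not the binding of a factor.

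*Pomc*, *Agrp* and *Ghrh* mark arcuate neurons that act on feeding and growth. *Pomc* (A_64_P076450) encodes the precursor of α-MSH, ACTH and β-endorphin. It was 10.02, 9.99, 10.01 and 9.67 in AAV-Null replicates 1 to 4 and 9.81, 9.78, 9.93 and 9.98 in AAV-αSyn replicates 1 to 4. AAV-Null replicate 4, the highest array for *Pmch*, was the lowest for *Pomc*, and the AAV-αSyn arrays lay between it and the other AAV-Null arrays. The difference was −0.05 (SE 0.10, unadjusted p = 0.649 and adjusted p = 0.987 in limma), and −0.13 without AAV-Null replicate 4. *Pomc* is also a gene of the pituitary, and the pituitary genes measured beside it were mixed. *Prl*, *Gh1* and *Tshb* were above background on no array, *Cga* and *Fshb* on 2 arrays each, and *Lhb*, *Pou1f1* and *Pitx1* on all 8. *Lhb* was 7.31 to 7.77 over the arrays, and *Cga* was highest on AAV-Null replicate 3 at 7.28. Over the 8 arrays *Pomc* and *Cartpt* had a Pearson r of 0.80 and a Spearman rho of 0.88, the highest rho of any pair of members, although *Pomc* spanned 0.35 log2 units and *Cartpt* 3.60.

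*Agrp* (A_64_P012198), which encodes agouti-related peptide, the natural antagonist of α-MSH at its receptors, was 6.45, 6.43, 6.39 and 6.73 on AAV-Null replicates 1 to 4. It was 6.74, 6.24, 6.42 and 6.74 in AAV-αSyn replicates 1 to 4, so that the groups overlapped, with AAV-αSyn replicate 2 below every AAV-Null array and AAV-αSyn replicates 1 and 4 just above them all. The difference was 0.03 (95% interval −0.29 to 0.35, unadjusted p = 0.816 in limma). *Ghrh* encodes growth hormone-releasing hormone, and its brightest probe (A_44_P1104095) was 8.04, 7.65, 7.83 and 7.92 on the AAV-Null arrays. It was 7.94, 7.95, 7.73 and 7.79 on the AAV-αSyn arrays. The difference was −0.01 (95% interval −0.25 to 0.23, unadjusted p = 0.943 in limma). The other *Ghrh* probes differed by 0.07 and 0.09, and the 3 probes correlated over the arrays with r from 0.63 to 0.91.

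*Avp* and *Oxt* encode vasopressin and oxytocin, the hormones that magnocellular paraventricular and supraoptic neurons send to the posterior pituitary. *Avp* (A_44_P254016) was 9.13, 9.24, 9.15 and 9.0 on the AAV-Null arrays and 9.13, 9.17, 9.26 and 9.47 on the AAV-αSyn arrays. Its difference was 0.13 (SE 0.097, 95% interval −0.10 to 0.35, unadjusted p = 0.226 in limma), with the highest value on AAV-αSyn replicate 4. It was 0.056 without that array, 0.084 without AAV-Null replicate 4 and 0.072 with array weights. *Oxt* (A_44_P1020655) was 4.89, 5.05, 5.34 and 4.86 on the AAV-Null arrays and 5.31, 5.28, 5.28 and 4.92 on the AAV-αSyn arrays. For *Oxt*, 3 of the AAV-αSyn arrays lay close together near the top of the AAV-Null range and AAV-αSyn replicate 4 lay near its bottom. The difference was 0.16 (95% interval −0.15 to 0.48, unadjusted p = 0.263 in limma). It was 0.27 without AAV-Null replicate 3, 0.26 without AAV-αSyn replicate 4, 0.11 without AAV-Null replicate 4 and 0.069 with normexp background correction. The 2 hormone genes were highest on different arrays, and their r over the arrays was −0.03.

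*Trh* (A_44_P332790) encodes thyrotropin-releasing hormone, which drives the thyroid axis and is also made by raphe and other brainstem neurons. It was 6.49, 6.32, 6.62 and 6.77 in AAV-Null replicates 1 to 4 and 6.45, 7.48, 6.45 and 7.31 in AAV-αSyn replicates 1 to 4. AAV-αSyn replicates 2 and 4 were above every AAV-Null array, and AAV-αSyn replicates 1 and 3 lay within the AAV-Null range. The difference was 0.37 (SE 0.26, 95% interval −0.22 to 0.96), and ran from 0.19 without AAV-αSyn replicate 2 to 0.53 without AAV-αSyn replicate 3. With array weights it was 0.56 (unadjusted p = 0.0510 and adjusted p = 0.296 in limma). Its unadjusted p of 0.185 in limma was the lowest of the 9 members (adjusted p = 0.965), and the exact permutation test gave p = 0.343. The AAV-αSyn replicates 2 and 4 lie on 1 side of the slide, where the difference was 0.84, and the difference on the other side was −0.09. *Tph2*, the serotonin-synthesising enzyme of the raphe, was 11.16, 11.51, 10.59 and 12.20 in AAV-αSyn replicates 1 to 4 and 8.12 to 10.61 in AAV-Null. Over the arrays it had an r of 0.65 and a rho of 0.62 with *Trh*, and an r of 0.53 with the groups centred. Its part in the *Trh* values was not tested.

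**Figure D4:**
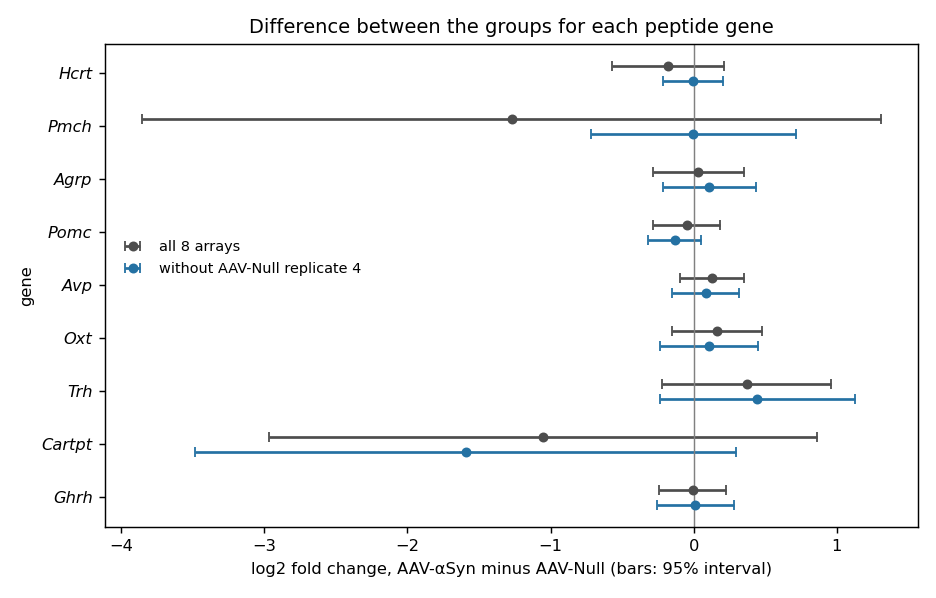
Points give the log2 fold change (AAV-αSyn minus AAV-Null, horizontal axis) of each of the 9 genes with its 95% interval, over all 8 arrays and without AAV-Null replicate 4. Every interval spans 0 in both comparisons, *Pmch* moves from −1.27 to −0.0016, and *Pmch* and *Cartpt* have the widest intervals.

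The receptors of these peptides were measured in the same fit. Of 14 receptor genes, 12 had a named probe, 10 were tested and 9 were above background on all 8 arrays. The count at an unadjusted p under 0.05 was 0 higher and 1 lower, and the median difference was 0.09. The 1 was *Mc3r*, a melanocortin receptor for the products of *Pomc* and for *Agrp*, which dopaminergic and hypothalamic neurons express. It was 8.26, 8.07, 8.21 and 7.87 on the AAV-Null arrays and 6.83, 7.28, 7.93 and 7.85 on the AAV-αSyn arrays. The groups overlapped at a single pair of arrays, and the difference was −0.63 (SE 0.24, unadjusted p = 0.0303 and adjusted p = 0.835 in limma). With 1 array left out, its unadjusted p was above 0.05 without AAV-Null replicate 1, 2 or 3 or AAV-αSyn replicate 1 or 2, and reached 0.0738. *Hcrtr1*, a receptor for the orexins, differed by 0.08 (unadjusted p = 0.569 and adjusted p = 0.979 in limma). The receptor for melanin-concentrating hormone, *Mchr1*, was chosen beside *Pmch* after its values were seen, and its difference was −0.10 (unadjusted p = 0.439 and adjusted p = 0.973 in limma). It was 7.13 on AAV-Null replicate 4 and 6.65 to 7.10 elsewhere.

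No difference was detected for the enzymes and granule proteins that process such precursors. All 15 were tested and above background on all 8 arrays, and 0 had an unadjusted p under 0.05. By the brightest probe of each gene, their differences ran from −0.23 to 0.20, with a median of −0.03. *Pcsk1*, at the upper end, had a second probe outside that range, at −0.31 (unadjusted p = 0.0532 and adjusted p = 0.886 in limma). *Scg5* and *Scg2*, granins of dense-core granules, differed by −0.01 and −0.05. The other hypothalamic peptides gave a different count. Of 8 tested, 3 were higher in the AAV-αSyn group at an unadjusted p under 0.05, and 0 were past the adjustment. *Sst*, which encodes somatostatin, was 13.48, 13.72, 13.63 and 13.66 on the AAV-Null arrays and 14.10, 14.18, 13.78 and 14.15 on the AAV-αSyn arrays. The groups did not overlap, and the difference was 0.43 (SE 0.11, unadjusted p = 0.00382 and adjusted p = 0.605 in limma). *Gal*, the galanin precursor, differed by 0.94 (SE 0.36, unadjusted p = 0.0294 and adjusted p = 0.835 in limma) with overlapping groups. *Gnrh1*, the gonadotropin-releasing hormone precursor, differed by 0.22 (SE 0.089, unadjusted p = 0.0393 and adjusted p = 0.853 in limma), with all 4 AAV-αSyn arrays above all AAV-Null arrays by a margin under the spread within a group. *Gal* kept an unadjusted p under 0.05 in 2 and *Gnrh1* in 3 of the 8 comparisons with 1 array left out, and *Sst* in 8 of 8. *Sst* and *Gal* are also made by many neurons outside the hypothalamus, in the brainstem among other regions. Of the 10 hypothalamic transcription factors tested, 3 had a higher mean in AAV-αSyn and 7 a lower one, with a median difference of −0.67. The log2 of their summed intensity was 9.48 to 10.44 in AAV-Null and 9.11 to 9.39 in AAV-αSyn, without overlap. Only 4 of the 10 were above background on all 8 arrays, and the summed levels were not tested. Among these transcription factors, *Hmx2* was the 1 with an unadjusted p under 0.05. It was above background on 4 AAV-αSyn arrays but 1 of AAV-Null, so that its difference of 1.38 rests on AAV-Null values that were mostly not measured. That difference was 0.28 with normexp background correction and 2.11 with array weights. *Lhx9* and *Tbx3*, the brightest of that list, differed by 0.02 and −0.27.

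The pattern of each member over the 8 arrays was also set against those of 12587 named genes. The 3 most alike for *Pmch* were *Traip*, *Crcp* and *Pthlh*, with r from 0.97 to 0.98, and between 0.62 and 0.73 without AAV-Null replicate 4. For *Hcrt* they were *Trmt10c*, *Gdf6* and *Neurl1*, with r from 0.96 to 0.97 over all arrays and between 0.72 and 0.84 without AAV-Null replicate 4. For *Cartpt* they were *Ucn*, *Micos10* and *Epc1*, with r from 0.96 to 0.98, of which *Ucn* spanned 4.13 log2 units and *Micos10* 0.13. The genes most like *Pmch* spanned from 0.44 (*Crcp*) to 2.41 (*Pthlh*) log2 units. For *Pomc* they were *Kpna3*, *Rttn* and *Ubr1* (r near 0.98), and for *Agrp* they were *Ndel1*, *Rbm3* and *Vamp4* (0.94 to 0.95). For *Avp* they were *Entpd3*, *Cldn4* and *Smim17* (0.92 to 0.93), and for *Oxt* they were *Bricd5*, *Llgl1* and *Col5a3* (0.96). These members varied less over the arrays than *Pmch* and *Cartpt*. For *Trh* they were *Fbxo25*, *Luc7l3* and *Prkci* (0.94 to 0.95), and for *Ghrh* they were *Umod*, *Uba52l1* and *Bcl2l1* (0.92 to 0.93). These are the highest of many coefficients over 8 arrays that share a slide and a normalization, and carry no p.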

How the data were processed

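RNA of the injected SN was measured on 8 one-colour Agilent SurePrint G3 Rat arrays, 4 AAV-Null and 4 AAV-αSyn, all on 1 slide. The authors deposited scanner files with each spot's intensity after background correction by Feature Extraction (version 12.0.3.2 in the file headers, 11.5.1.1 in the submitters' processing notes). A second deposited table held quantile-normalized log2 values, whose rank correlation with those intensities was 1 on every array. The authors' methods name limma, quantile normalization and the removal of artifact and dim spots.

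Here the intensities were taken to log2 in R 4.3.3 after leaving out control and outlier spots. A probe counted as above background where the scanner software called a share of 0.5 or more of its spots so. Probes that met this on any array were quantile normalized with limma 3.58.1 and averaged over spots. The groups were compared at 33853 probes by lmFit and eBayes, two-sided, with Benjamini–Hochberg adjustment over all of them at 0.05. Exact permutation tests used every split into 4 and 4. RefSeq accessions of the GRCr8 assembly named 21229 of 45598 probes, and a gene with several probes was represented by the brightest. The other probes on the array have no name here, and 1 gene of the lists is not reported here. No gene coordinates are given from that assembly besides those of the printed sequences, since the file headers name another.

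The alternatives were scaling by the 75th percentile or cyclic loess, normexp with an offset of 50 on the median signal, other filters on dim probes, the deposited matrix, other variance models, blocks, and leaving out 1 array at a time. The named genes were the 9 members, for each list the genes with an unadjusted p under 0.05 (or, with fewer than 2, the brightest 2), the 3 genes most like each member, and markers of the tissue. The members, lists and tests were chosen with earlier results of these data known. The methods call the replicates biological. P-values measure the spread between these samples, and the number of arrays limits the precision. In a simulation of this comparison over 33836 probes, 187 of 200 probes changed by 2 on the log2 scale were called, with 12 false calls.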

Additional observations from a re-analysis of the deposited data

Results flagged for a closer look

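Each set of 4 replicates was searched for an array that stands off from its group. The measure was the distance of the extreme array to the next one as a share of the group's range, taken for the members, the genes named from the lists by rule and 11 list genes named after their values were seen. Among the members and the genes named by rule, 6 of 80 sets passed Dixon's limit, where 1 in 20 would be 4. That count holds for genes chosen without regard to their values. Most genes named by rule were chosen by an unadjusted p under 0.05 in limma on these data. The genes named after their values were seen gave 4 of 22, to which no chance count applies. Among the members, *Pomc* was 9.67 on AAV-Null replicate 4 and 9.99 to 10.02 in the rest of its group (share 0.909). *Oxt* was 4.92 on AAV-αSyn replicate 4 and 5.28 to 5.31 in the rest (0.943). *Pmch* was 9.78 on AAV-αSyn replicate 3 and 8.99 to 9.12 in the rest (0.832). The far higher *Pmch* value on AAV-Null replicate 4 had a share of 0.796 and did not pass, with the other 3 arrays of that group spread from 8.66 to 9.81.

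Among other genes, *Npvf* (0.840) and *Nkx2-1* (0.845) stood off on AAV-Null replicate 4, where they were highest. *Nkx2-1* also did so on AAV-αSyn replicate 1, where it was lowest at 3.62 (0.851). *Six6* stood off on AAV-αSyn replicate 4 at 6.26 (0.996), the only array where it was above background. *Gnrh1* was highest on AAV-αSyn replicate 4 at 8.06 (0.832), and *Lhx9* on AAV-αSyn replicate 2 at 8.64 (0.891). *Scg2* was lowest on AAV-αSyn replicate 1 at 14.91 (0.937). The causes of these values were not tested.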

How the results depend on the processing

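No alternative put a member past the adjustment, and 172 of 181 recomputed differences of the members kept their direction. The reversals concerned *Agrp* and *Ghrh*, whose differences lay near 0. *Agrp* was −0.0037 without AAV-Null replicate 3, −0.034 without AAV-αSyn replicate 1 and −0.036 without AAV-αSyn replicate 4, and ran from −0.036 to 0.13 with 1 array left out. *Ghrh* was 0.10 with array weights, 0.053 without AAV-Null replicate 1, 0.013 without AAV-Null replicate 4, 0.034 without AAV-αSyn replicate 3, 0.012 without AAV-αSyn replicate 4 and 0.051 as the mean of its probes, and ran from −0.078 to 0.053 with 1 array left out. The cause was not tested. *Pmch* ranged from −1.31 to −0.40 over the processing alternatives, the last with array weights, and from −1.89 to −0.0016 with 1 array left out. The excess of AAV-Null replicate 4 at *Pmch* stayed between 4.22 and 4.55 over 7 other scalings, filters and backgrounds, and the r of *Cartpt* with *Ucn* at 0.98. These last checks, and those on genes of the other lists, were added after the data were seen, and 357 differences of those list genes gave 0 reversals, of which 341 also kept their side of the adjusted threshold. *Cck* passed it with normexp (adjusted p = 0.0262), the intensity trend (0.00823) and array weights (0.0284), and *Dbh* without AAV-αSyn replicate 1 (0.00760). *Dbh* was above background on 0 AAV-Null arrays, so that call rests on AAV-Null values that were not measured. *Slc6a5* lost its call with cyclic loess (0.0621), no filter on dim probes (0.0821), the deposited matrix (0.0599), the replicate block (0.396) and the slide side block (0.0980), and in 7 of 8 comparisons with 1 array left out. The causes were not tested.

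Of all probes, 5 were past the adjustment. The count was 12 with array weights, 0 with a block for the replicate number and 3 with the side of the slide as a block, and ran from 3 to 5 with 1 array left out, while the count of members stayed at 0 to 0. Same-numbered arrays deviated together with correlations of 0.14, 0.27, 0.04 and −0.00. AAV-Null replicates 1 and 2 correlated most with the AAV-αSyn array of the same number, and replicates 3 and 4 with AAV-αSyn replicate 1. Whether the replicate number pairs the samples was not tested. At an unadjusted p under 0.05 the block gave 2218 probes and 0 members. No scaling moved the median of all probes by over 0.1.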
